A study of Homo sapiens with 15 samples.

Results

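Small nucleolar RNA (snoRNA) host genes are genes that carry snoRNAs within their transcripts, and 10 listed host genes are described here: SNHG1, SNHG3, SNHG5, SNHG7, SNHG8, SNHG12, SNHG15, SNHG17, GAS5 and ZFAS1. They were taken by name, and all 10 were found among the 55773 genes of the deposited table. The data were RNA-seq profiles of HEK293 cells, an established human embryonic kidney line, in 15 libraries, 3 in each of 5 groups. For overexpression, Flp-In T-REx 293 cells, which take up a single inducible transgene, expressed Flag/HA-tagged ZC3H7A, Flag/HA-tagged ZC3H7B or a Flag/HA control. All 3 groups received doxycycline, which the labels give as 1 µg/mL for 24 h, and all were lysed in a hypotonic buffer used to prepare polysomes, from which 50 µg of lysate went to poly(A) RNA-seq with the TruSeq RNA v2 kit. In the depletion experiment, the DD group combined a ZC3H7A knockout with an shRNA against ZC3H7B, and the Parental group carried a control shRNA. Both depletion groups were kept in puromycin at 5 µg/mL and released from it 2 passages before collection, and a company made their libraries with its own protocol. ZC3H7A and ZC3H7B are paralogous CCCH zinc-finger proteins that bind RNA. The overexpression replicates are described as independent. The sources used here do not say whether the 3 DD and the 3 Parental libraries were grown apart, nor give the number of clones behind the DD line or behind each transgene line, so the p-values measure the spread between these samples.

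snoRNAs are short nuclear RNAs that guide the chemical modification of ribosomal RNA. Box C/D snoRNAs pair with fibrillarin (FBL) to direct ribose methylation, and box H/ACA snoRNAs work with dyskerin (DKC1) to direct pseudouridine formation. Most human snoRNAs are cut out of introns after splicing, so that 1 transcript gives a spliced RNA and a snoRNA. The spliced host RNAs leave the nucleus, many start with a terminal oligopyrimidine (TOP) tract like that of ribosomal protein mRNAs, and several are bound by ribosomes and degraded by nonsense-mediated decay, for which GAS5 is the textbook case. The listed genes fall into hosts of box C/D snoRNAs (SNHG1, SNHG5, GAS5 and ZFAS1), hosts of box H/ACA snoRNAs (SNHG3, SNHG7, SNHG8, SNHG15 and SNHG17) and SNHG12, which carries both kinds.

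The start of the transcript is shown for 9 of the 10 genes, because a TOP start is the sequence feature best known in this class. Each run holds the 20 bases before the annotated start and the 30 bases from it on, 5′ to 3′ on the gene's strand, from RefSeq on GRCh38.p14. The deposited counts were made on hg19, so these positions belong to the sequences and not to the counts. Capitals mark a C followed by at least 4 more pyrimidines that begins at the start or within 5 bases of it, searched on the gene's strand. SNHG15 is named only.
SNHG5, chr6:85678704-85678753, minus strand: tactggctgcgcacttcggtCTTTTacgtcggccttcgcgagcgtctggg
ZFAS1, chr20:49278622-49278671, plus strand: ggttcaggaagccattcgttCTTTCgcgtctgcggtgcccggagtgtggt
SNHG12, chr1:28581844-28581893, minus strand: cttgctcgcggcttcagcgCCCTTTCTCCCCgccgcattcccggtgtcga
SNHG7, chr9:136728155-136728204, minus strand: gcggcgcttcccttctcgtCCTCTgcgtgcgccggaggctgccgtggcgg
SNHG8, chr4:118278742-118278791, plus strand: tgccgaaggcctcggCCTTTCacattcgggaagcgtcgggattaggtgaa
SNHG17, chr20:38435299-38435348, minus strand: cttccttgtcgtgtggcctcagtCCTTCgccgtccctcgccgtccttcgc
SNHG1, chr11:62855856-62855905, minus strand: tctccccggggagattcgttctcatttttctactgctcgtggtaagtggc
SNHG3, chr1:28505923-28505972, plus strand: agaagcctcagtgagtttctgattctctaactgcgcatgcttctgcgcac
GAS5, chr1:173869016-173869065, minus strand: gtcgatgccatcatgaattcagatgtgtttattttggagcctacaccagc
SNHG5, ZFAS1 and SNHG12 had such a tract at the annotated start itself, 3 of 9 genes (33.3%), against 1429 of 35116 RefSeq promoters (4.07%). SNHG7, SNHG8 and SNHG17 had 1 within 5 bases, which gives 6 of 9 (66.7%) against 18.1% of all promoters. The letters C followed by 4 pyrimidines were not found there in SNHG1, SNHG3 and GAS5. The GAS5 and SNHG3 windows lay wholly upstream of their GENCODE genes, which start at 173868882 and 28505980. The windows of SNHG1, SNHG8, SNHG12, SNHG17 and ZFAS1 lay wholly inside theirs. The shares thus hold for the RefSeq starts shown, and other starts of these genes were not searched. A match is a description of these letters, and an annotated start can differ from the start used in these cells.

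The overexpression libraries held 45.5 to 57.6 M reads and the depletion libraries 12.2 to 15.5 M. Abundant small non-coding RNAs took 5.60% to 6.58% of the reads in DD and Parental and at most 0.00539% with overexpression, and no value was compared between the experiments. ZC3H7A averaged 11192 ± 1492 normalized counts in its overexpression and 3259 ± 102 in the control (log2 fold change 1.77 with SE 0.0756, adjusted p = 2.98e-09 by limma). ZC3H7B averaged 27142 ± 815 in its overexpression and 5938 ± 114 in the control (log2 fold change 2.19 with SE 0.0473, adjusted p = 7.55e-11 by limma). In DD, ZC3H7B averaged 1084 ± 84.1 against 6463 ± 505 in Parental (log2 fold change -2.58 with SE 0.0817, adjusted p = 4.19e-09 by limma), while the knocked-out ZC3H7A had 1658 ± 106 in DD and 1599 ± 78.7 in Parental and was not called (log2 fold change 0.05 with SE 0.0770, adjusted p = 0.666 by limma). Reads over a whole gene do not show whether a knockout allele still makes protein. Of 6 known neuronal and kidney genes of the line that were looked at, some were present and others low. INA, a neuronal intermediate filament, had group means of 1175 to 3207 over the 5 groups. PAX2, a kidney transcription factor, had 151 to 306, while PAX8, another kidney factor, was near 0 with 0.631 to 2.3. In the overexpression experiment NEFL, CHGB and NEFM, also neuronal, had 4483 to 5610, 149 to 325 and 26.6 to 31.8. NEFM was thus low, and in DD against Parental 4 of the 6 were tested. Values below are normalized counts, means carry the SD of 3 libraries, and each log2 fold change carries its standard error (SE) from limma and a Benjamini-Hochberg adjusted p over all tested genes, called under 0.05. In bulk samples, fewer cells with an RNA and less RNA per cell cannot be told apart.

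Together the 10 host RNAs gave 0.0728% to 0.0784% of the reads with ZC3H7A, 0.0901% to 0.0909% with ZC3H7B and 0.0794% to 0.0806% in the control. In the depletion experiment they gave 0.0358% to 0.0384% of the reads in DD and 0.0605% to 0.0623% in Parental. Their summed normalized counts were 10517 to 11100 in the 3 DD libraries and 17938 to 18768 in the 3 Parental libraries. The shares with ZC3H7B lay above those of the control, the shares with ZC3H7A below them, and the shares in DD below those in Parental, with no overlap in any of these pairs. The summed normalized counts with ZC3H7A, at 21224 to 22315, overlapped those of the control, at 20979 to 21449.

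**Figure D1:**
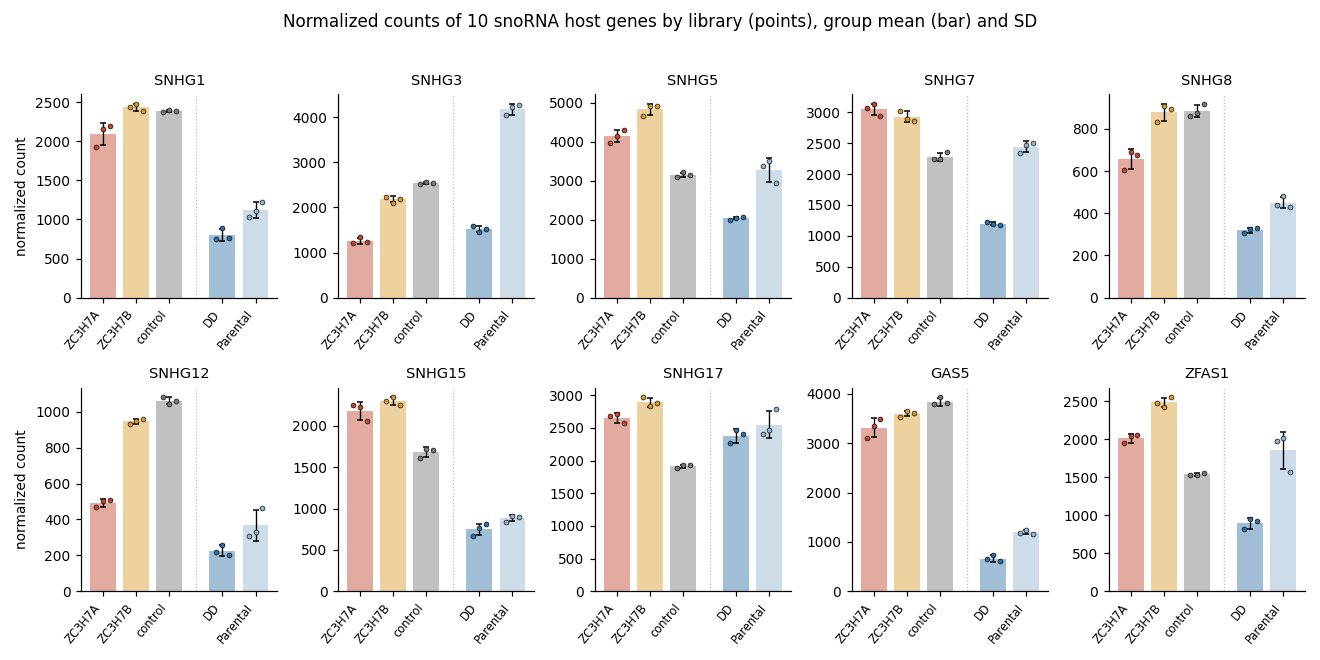
Normalized counts (linear axis from 0) of the 10 host genes in each library (points), with the group mean (bar) and SD over 3 libraries (line); the dotted line separates the overexpression from the depletion experiment. SNHG3 stands at 1255 ± 72.2 with ZC3H7A and 1523 ± 71.0 in DD, below all their comparison libraries.

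With ZC3H7A, the host genes split into 5 that rose and 5 that fell. SNHG17, SNHG7, SNHG5, ZFAS1 and SNHG15 rose, with log2 fold changes between 0.37 and 0.47. SNHG12 and SNHG3 fell the most, with log2 fold changes of -1.10 and -1.01, and SNHG8, GAS5 and SNHG1 fell by less, at -0.43, -0.21 and -0.19. For all 10 genes the ZC3H7A libraries lay apart from the controls. Of 17673 tested genes, 34.7% were called higher, 41.2% lower and 75.9% either way, and 77.9% did not overlap between the groups, so being called was also common outside the 10. The rise of SNHG7 and the falls of GAS5 and SNHG1 did not hold without the trend of each library with A+T content, as given for each gene below. The median log2 fold change of the 10 was 0.09, beside -0.07 over all tested genes.

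With ZC3H7B, the same 5 genes rose and the falls were small. ZFAS1, SNHG5, SNHG17, SNHG15 and SNHG7 rose, with log2 fold changes between 0.36 and 0.69, while SNHG3 and SNHG12 fell with -0.22 and -0.17. SNHG1, SNHG8 and GAS5 were not called, with 0.03, -0.01 and -0.09. Of all tested genes, 32% were called higher and 37.6% lower (69.6% either way), and 77.1% did not overlap between the groups, against 8 of the 10 host genes. The median log2 fold change was -0.06 over all genes and 0.19 over the 10. Both overexpressions were compared with the same 3 control libraries, so a direction shared by both is not independent.

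Set against ZC3H7B directly, ZC3H7A had the lower level in 7 of the 10 genes and the higher level in 0 by limma, which was also 0 at an unadjusted p under 0.05 and by edgeR and DESeq2. SNHG12, SNHG3, SNHG8, ZFAS1, SNHG5, SNHG1 and SNHG17 were lower, with log2 fold changes from -0.94 to -0.12, and SNHG7, SNHG15 and GAS5 were not called, at 0.06, -0.07 and -0.12 (limma adjusted p = 0.297, 0.232 and 0.0560). The libraries of these 2 groups did not overlap for 8 of the 10 genes. Among all tested genes 20.4% were called lower and 23.9% higher (44.3% either way), 49.2% did not overlap, and the median log2 fold change was -0.22 over the 10 and 0.01 over all genes. For SNHG17, the smallest of the 7, the call was lost without ZC3H7B replicate 1 (log2 fold change -0.10, limma adjusted p = 0.0978) and without ZC3H7B replicate 3 (log2 fold change -0.13, limma adjusted p = 0.0616). It was also lost with DESeq2 (adjusted p = 0.0642), with no filter (limma adjusted p = 0.0619) and with the 2 groups fitted alone (limma adjusted p = 0.0658).

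In DD, 8 of the 10 host genes fell, and 0 rose by limma, at an unadjusted p under 0.05, by edgeR or by DESeq2. SNHG3, ZFAS1 and SNHG7 fell with log2 fold changes of -1.46, -1.04 and -1.02. GAS5, SNHG12, SNHG5, SNHG8 and SNHG1 followed, between -0.85 and -0.48. SNHG15 and SNHG17 were not called, at -0.24 and -0.10 (limma adjusted p = 0.0670 and 0.386). At an unadjusted p under 0.05, 9 of the 10 were lower, and SNHG15 was called lower with the A+T trend removed (-0.25, limma adjusted p = 0.0432). Of 18494 tested genes, 14.8% were called lower, 14.7% higher and 29.5% either way, and the DD and Parental libraries did not overlap in 43% of genes. The libraries did not overlap for 9 of the 10 host genes, SNHG17 being the exception, and the median log2 fold change was -0.68 over the 10 and 0.01 over all tested genes. SNHG5, SNHG7 and ZFAS1 thus rose in both overexpressions and fell in DD, SNHG3 and SNHG12 fell in all 3 comparisons, and SNHG1, SNHG8 and GAS5 fell with ZC3H7A and in DD. With ZC3H7A, the rise of SNHG7 and the falls of SNHG1 and GAS5 did not hold with the A+T trend removed. The fall of SNHG12 with ZC3H7B was not called with TMM scaling, edgeR or DESeq2. The overexpression and depletion effects were not tested against each other, since the libraries were made by different protocols.

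**Figure D2:**
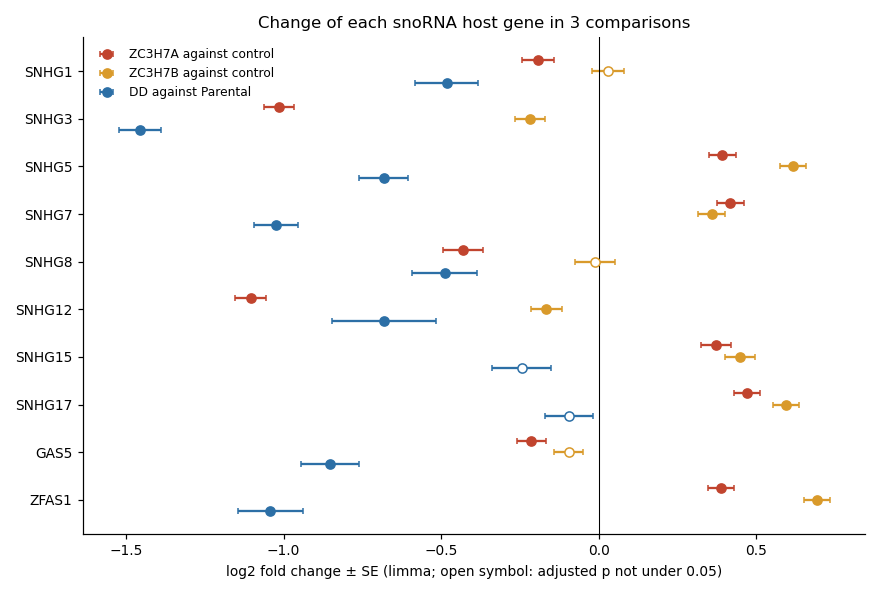
Log2 fold change with its limma standard error (horizontal axis) for each host gene (rows) with ZC3H7A against control, with ZC3H7B against control and in DD against Parental. Filled symbols have an adjusted p under 0.05; SNHG3 and SNHG12 lie left of 0 in all 3 comparisons, and SNHG5, SNHG7 and ZFAS1 lie right of 0 in both overexpressions and left of 0 in DD.

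Among the box C/D hosts, SNHG5 and ZFAS1 both rose in the overexpressions and fell in DD. SNHG5, which carries the SNORD50 snoRNAs, had 3981, 4161 and 4297 with ZC3H7A, 4676, 4918 and 4931 with ZC3H7B and 3106, 3216 and 3148 in the control. All 6 overexpression libraries lay above the 3 controls, and those with ZC3H7B lay above those with ZC3H7A. The rise was called with ZC3H7A (log2 fold change 0.39 with SE 0.0419, adjusted p = 3.53e-06 by limma) and with ZC3H7B (log2 fold change 0.62 with SE 0.0419, adjusted p = 1.38e-07 by limma). In the depletion experiment it had 2005, 2047 and 2062 in DD, against 3382, 3520.4 and 2937 in Parental, a fall without overlap (log2 fold change -0.68 with SE 0.0776, adjusted p = 6.09e-05 by limma).

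ZFAS1, a host of the SNORD12 snoRNAs that starts head to head with the zinc-finger gene ZNFX1, had 1945, 2040.3 and 2049 with ZC3H7A, 2472, 2429.5 and 2551 with ZC3H7B and 1523, 1531 and 1558 in the control. The order of the groups was that of SNHG5, with ZC3H7B highest, ZC3H7A between and the control lowest, and no libraries overlapping. Its rise was log2 fold change 0.39 with SE 0.0412, adjusted p = 3.50e-06 by limma with ZC3H7A and log2 fold change 0.69 with SE 0.0412, adjusted p = 5.24e-08 by limma with ZC3H7B. ZFAS1 had 816, 952 and 920.5 in DD, against 1978, 2009 and 1575 in Parental. Each DD library lay below each Parental library (log2 fold change -1.04 with SE 0.104, adjusted p = 2.36e-05 by limma). Once each library's trend with A+T content was removed, the rise of ZFAS1 with ZC3H7A was 0.12 (limma adjusted p = 0.0201) and that with ZC3H7B 0.49, while SNHG5 kept 0.39 and 0.59. ZNFX1, read from the other strand, had log2 fold changes of 0.70 with ZC3H7A, 0.56 with ZC3H7B and -0.07 in DD, the last not called (limma adjusted p = 0.606). The TruSeq RNA v2 kit does not mark the strand, and the strand setting of the counting is not given, so where a host overlaps another gene (ZFAS1, GAS5, SNHG3, SNHG7 and SNHG12) the reads of the shared stretch cannot be told apart.

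GAS5, named for its accumulation in growth-arrested cells, carries a series of C/D snoRNAs in its introns. It had 3099, 3353 and 3488 with ZC3H7A, 3536, 3642 and 3601 with ZC3H7B and 3782, 3928 and 3803 in the control. All ZC3H7A libraries lay below all controls, and the ZC3H7B libraries also lay below them, by less. The fall was called with ZC3H7A (log2 fold change -0.21 with SE 0.0464, adjusted p = 0.00114 by limma) but not with ZC3H7B (log2 fold change -0.09 with SE 0.0464, adjusted p = 0.0861 by limma), where it was called without ZC3H7A replicate 1 or 3 in the shared fit (limma adjusted p = 0.0421 and 0.0216) and with the 2 groups fitted alone (limma adjusted p = 0.0107). Against ZC3H7B, GAS5 was called lower with ZC3H7A only without ZC3H7A replicate 3 among the replicates left out (log2 fold change -0.16, limma adjusted p = 0.00296), and it was also called with TMM scaling and with edgeR (adjusted p = 0.0230 and 0.0231). GAS5 had 651, 739 and 605 in DD, against 1190.1, 1240.0 and 1166 in Parental. The 3 DD libraries lay well under the 3 Parental libraries (log2 fold change -0.85 with SE 0.0916, adjusted p = 4.01e-05 by limma). The small changes in the overexpressions turned with 1 alternative: once each library's trend with A+T content was removed, GAS5 had a log2 fold change of 0.09 with ZC3H7A (limma adjusted p = 0.0335) and 0.15 with ZC3H7B (limma adjusted p = 0.00204), both higher than control. Its longest transcript holds 57.8% A+T, the highest of the 10 genes, beside a median of 51.3% over 15233 tested genes. ZBTB37, a zinc-finger gene that overlaps GAS5 on the other strand, fell in the overexpressions (-1.22 with ZC3H7A and -1.06 with ZC3H7B) and was not called in DD (0.16, limma adjusted p = 0.415). Its part in the GAS5 values was not tested.

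SNHG1, the host of a row of C/D snoRNAs on chromosome 11, had 1924, 2153 and 2193 with ZC3H7A, 2431, 2481 and 2391 with ZC3H7B and 2371, 2403 and 2382 in the control. The ZC3H7A libraries lay lowest, and the ZC3H7B and control libraries overlapped. SNHG1 was called lower with ZC3H7A (log2 fold change -0.19 with SE 0.0504, adjusted p = 0.00395 by limma) and not called with ZC3H7B (log2 fold change 0.03 with SE 0.0504, adjusted p = 0.624 by limma). It had 756, 896 and 756 in DD, against 1026, 1109 and 1229 in Parental, again without overlap (log2 fold change -0.48 with SE 0.0987, adjusted p = 0.00329 by limma). The fall with ZC3H7A turned to 0.05 (limma adjusted p = 0.284) once the A+T trend was removed, and SNHG1 was then called higher with ZC3H7B at 0.21 (limma adjusted p = 3.06e-04); its transcript holds 56.9% A+T.

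SNHG3 and SNHG12, near neighbours on the short arm of chromosome 1, had the largest falls in the overexpressions. SNHG3, which carries the H/ACA snoRNAs SNORA73A and SNORA73B, had 1201, 1337 and 1228 with ZC3H7A, 2235, 2107 and 2192 with ZC3H7B and 2507, 2559 and 2533 in the control. Each ZC3H7A library lay below each ZC3H7B library, and these below each control. SNHG3 fell with ZC3H7A (log2 fold change -1.01 with SE 0.0483, adjusted p = 6.01e-09 by limma), fell with ZC3H7B (log2 fold change -0.22 with SE 0.0483, adjusted p = 0.00153 by limma) and was lower with ZC3H7A than with ZC3H7B (log2 fold change -0.80 with SE 0.0483, adjusted p = 1.40e-07 by limma). In the depletion experiment it had 1598, 1457 and 1514 in DD, against 4037, 4233 and 4261 in Parental. That was the largest fall of the 10 genes (log2 fold change -1.46 with SE 0.0676, adjusted p = 1.08e-07 by limma), and it took SNHG3 per length to 373 ± 17.4 normalized counts per kb of exon in DD, against 1022 ± 29.9 in Parental. RCC1, a regulator of nuclear transport whose gene overlaps SNHG3 on the same strand, had log2 fold changes of 0.13 with ZC3H7A, 0.65 with ZC3H7B and -0.68 in DD. Reads of the stretch that RCC1 and SNHG3 share may have been dropped or given to either gene, so the counts of these genes may not be separate.

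SNHG12, which carries both H/ACA and C/D snoRNAs, had 467, 504 and 509 with ZC3H7A, 930.1, 949 and 959 with ZC3H7B and 1080.2, 1043 and 1062 in the control. With ZC3H7A every library lay below every ZC3H7B and control library. Its fall was the largest of the 10 with ZC3H7A (log2 fold change -1.10 with SE 0.0494, adjusted p = 4.02e-09 by limma), and it was lower with ZC3H7A than with ZC3H7B (log2 fold change -0.94 with SE 0.0494, adjusted p = 4.95e-08 by limma). With ZC3H7B the fall was small (log2 fold change -0.17 with SE 0.0494, adjusted p = 0.00970 by limma), and the call was lost with TMM scaling (-0.11, limma adjusted p = 0.0699), edgeR (-0.11, adjusted p = 0.0640) and DESeq2 (-0.11, adjusted p = 0.0825). With the A+T trend removed it was larger, at -0.37 (limma adjusted p = 1.88e-05). SNHG12 had 219.7, 261 and 200.1 in DD, against 306, 333 and 466 in Parental. The DD libraries lay lower without overlap, with Parental replicate 3 standing apart from the other two (log2 fold change -0.68 with SE 0.166, adjusted p = 0.00898 by limma). TRNAU1AP, a selenocysteine tRNA-associated protein gene on the other strand that overlaps SNHG12, had log2 fold changes of -0.34 with ZC3H7A, 0.07 with ZC3H7B (not called) and -0.40 in DD.

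The remaining H/ACA hosts were SNHG7, SNHG8, SNHG15 and SNHG17. SNHG7, which carries SNORA17 snoRNAs, had 3065, 3129 and 2944 with ZC3H7A, 3025, 2898 and 2854 with ZC3H7B and 2246, 2242 and 2352 in the control. Both overexpression groups lay above the control and overlapped each other. It rose with ZC3H7A (log2 fold change 0.42 with SE 0.0428, adjusted p = 2.57e-06 by limma) and with ZC3H7B (log2 fold change 0.36 with SE 0.0428, adjusted p = 1.24e-05 by limma). It had 1229, 1187 and 1179.6 in DD, against 2338, 2473 and 2507 in Parental. The groups stood far apart beside their spread (log2 fold change -1.02 with SE 0.0691, adjusted p = 1.30e-06 by limma). SNHG7 has the lowest A+T content of the 10, at 34.1%, and with the A+T trend removed its log2 fold change with ZC3H7A was -0.01 (limma adjusted p = 0.736), so that the rise was lost. The rise with ZC3H7B was then 0.12 (limma adjusted p = 0.00413), and SNHG7 was called lower with ZC3H7A than with ZC3H7B (-0.14, limma adjusted p = 0.00289). FAM69B, a kinase-like gene that overlaps SNHG7 on the other strand, had 0.43 with ZC3H7A, -0.20 with ZC3H7B and -0.03 in DD (not called), and its part in the SNHG7 values was not tested.

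SNHG8, the shortest of the 10 genes and the host of SNORA24, had 603, 692 and 676 with ZC3H7A, 830.2, 909 and 894 with ZC3H7B and 860.1, 876 and 918 in the control. The ZC3H7A libraries were lowest, and the ZC3H7B libraries overlapped the controls. SNHG8 fell with ZC3H7A (log2 fold change -0.43 with SE 0.0622, adjusted p = 4.54e-05 by limma) and was not called with ZC3H7B (log2 fold change -0.01 with SE 0.0622, adjusted p = 0.876 by limma). It had 307, 325 and 329 in DD, against 439.6, 481 and 429 in Parental, a fall without overlap (log2 fold change -0.49 with SE 0.104, adjusted p = 0.00410 by limma).

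SNHG15, known as a short-lived RNA and the host of SNORA9, had 2257, 2229 and 2060.2 with ZC3H7A, 2295, 2346 and 2248 with ZC3H7B and 1615, 1723 and 1713 in the control. It rose with ZC3H7A (log2 fold change 0.37 with SE 0.0479, adjusted p = 1.70e-05 by limma) and with ZC3H7B (log2 fold change 0.45 with SE 0.0479, adjusted p = 5.20e-06 by limma), and those 2 groups overlapped. It had 672, 765 and 809 in DD, against 842, 909.7 and 904 in Parental. The DD libraries lay lower, but the difference was not called (log2 fold change -0.24 with SE 0.0926, adjusted p = 0.0670 by limma). SNHG17, the host of the 4 SNORA71 genes, had 2682, 2715 and 2571 with ZC3H7A, 2968, 2835 and 2876 with ZC3H7B and 1889, 1926 and 1933 in the control. Both groups lay above the control, with ZC3H7B highest (log2 fold change 0.47 with SE 0.0402, adjusted p = 5.49e-07 by limma with ZC3H7A and log2 fold change 0.59 with SE 0.0402, adjusted p = 1.33e-07 by limma with ZC3H7B). With the A+T trend removed the rise of SNHG17 with ZC3H7A was 0.29. It had 2263, 2471 and 2412 in DD, against 2400.2, 2460.3 and 2784 in Parental. These overlapped, and SNHG17 was the member with the smallest difference in DD (log2 fold change -0.10 with SE 0.0765, adjusted p = 0.386 by limma).

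Per kb of exon (normalized count divided by the length of the union of GENCODE 29 exons), SNHG5 had the highest level of the 10 and SNHG12 the lowest in all 5 groups. SNHG5 had 1478 ± 56.5 per kb with ZC3H7A, 1725 ± 51.0 with ZC3H7B and 1125 ± 19.8 in the control, and 726 ± 10.5 in DD against 1169 ± 109 in Parental. SNHG12 had 116 ± 5.43 with ZC3H7A, 222 ± 3.41 with ZC3H7B and 249 ± 4.30 in the control. SNHG3 held place 9 of 10 with ZC3H7A, 9 with ZC3H7B and 6 in the control, and place 4 in DD against 2 in Parental. GAS5 held place 2 with ZC3H7A, 3 with ZC3H7B and 2 in the control, 9 in DD and 7 in Parental. In the control, SNHG1 at 635 ± 4.29 and SNHG3 at 619.7 ± 6.41 were neighbours in this order whose values lay close. In DD, SNHG3 at 373 ± 17.4 and SNHG8 at 347 ± 12.6 were close, and their mean ± SD ranges overlapped although their libraries did not. The levels depend on the length used, since spliced host RNAs are shorter than the union of all annotated exons, and the places of several genes changed with the longest transcript.

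The snoRNAs within these genes could be followed in few cases. Of 39 snoRNAs listed for the 10 hosts, 27 were rows of the table and 10 reached a normalized count of 10 in 3 or more libraries of an experiment. Poly(A) libraries, as made for the overexpression experiment, capture mature snoRNAs poorly. The depletion libraries were made with the company's own protocol, so this limit is not stated for them. In both experiments, reads over a snoRNA can come from the unspliced host. The sequences below are those on which the comparison turns, taken 5′ to 3′ from the GENCODE 29 transcripts on GRCh38, with capitals for the box ACA near the end of an H/ACA snoRNA and for the C box core and D box of the C/D snoRNA SNORD12.
SNORA73B, chr1:28508559-28508762, plus strand: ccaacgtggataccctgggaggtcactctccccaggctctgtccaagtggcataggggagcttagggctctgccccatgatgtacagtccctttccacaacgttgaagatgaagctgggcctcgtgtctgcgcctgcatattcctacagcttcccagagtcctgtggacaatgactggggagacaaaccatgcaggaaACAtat
SNORA71A, chr20:38427309-38427442, minus strand: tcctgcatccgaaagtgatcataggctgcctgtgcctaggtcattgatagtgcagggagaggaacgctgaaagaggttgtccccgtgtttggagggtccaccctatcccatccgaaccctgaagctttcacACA
SNORA71C, chr20:38429670-38429803, minus strand: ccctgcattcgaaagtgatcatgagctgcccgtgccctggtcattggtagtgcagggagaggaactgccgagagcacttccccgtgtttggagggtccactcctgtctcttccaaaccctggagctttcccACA
SNORD12, chr20:49280683-49280772, plus strand: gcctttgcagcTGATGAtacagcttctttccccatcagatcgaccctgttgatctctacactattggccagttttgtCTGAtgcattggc
SNORA71A and SNORA71C, both within SNHG17, are identical at 83.09% of aligned positions, so reads could be assigned to either copy. SNORA73B lies in an intron of SNHG3, and its relative SNORA73A in the same host was not analysed here. SNORD12 and SNORA9 lie inside GENCODE 29 exons of ZFAS1 and SNHG15, while SNORD12B lies in an intron of ZFAS1. Reads over a snoRNA inside an exon can also come from the spliced host, so exonic and intronic snoRNAs are not like measures.

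SNORA73B, which belongs to the snoRNA family that acts in the cleavage of ribosomal RNA precursors, had 16.7, 10.7 and 8.88 with ZC3H7A, 23.0, 24.2 and 22.4 with ZC3H7B and 31.4, 30.9 and 35.4 in the control. The order of the 3 groups was that of SNHG3, without overlap. It fell with ZC3H7A (log2 fold change -1.40 with SE 0.200, adjusted p = 4.16e-05 by limma), beside -1.01 for SNHG3, and was not called with ZC3H7B (log2 fold change -0.47 with SE 0.200, adjusted p = 0.0521 by limma), where it was called without ZC3H7A replicate 1 or 3 in the shared fit (limma adjusted p = 0.0130 and 0.0249), with edgeR (adjusted p = 0.0341) and with the 2 groups fitted alone (limma adjusted p = 0.00822). In the depletion experiment it had 85.2, 73.4 and 65.3 in DD, against 242, 192 and 211 in Parental. Its fall (log2 fold change -1.52 with SE 0.172, adjusted p = 5.95e-05 by limma) was close in size to that of SNHG3 (-1.46).

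The other snoRNAs were counted with fewer reads or did not follow their host to the same extent. SNORD99, within SNHG12, had 8.98, 11.8 and 14.2 with ZC3H7A, 15.7, 12.4 and 24.95 with ZC3H7B and 25.8, 26.3 and 17.5 in the control, and was called lower with ZC3H7A (log2 fold change -0.93 with SE 0.265, adjusted p = 0.00652 by limma) but not in the other comparisons, except with ZC3H7B without ZC3H7B replicate 3 (-0.68, limma adjusted p = 0.0340). SNORA71A had 21.2, 25.7 and 23.1 with ZC3H7A, 24.5, 26.3 and 26.5 with ZC3H7B and 22.1, 17.7 and 16.9 in the control, and rose with ZC3H7B (log2 fold change 0.43 with SE 0.153, adjusted p = 0.0235 by limma), as SNHG17 did, a call lost without control replicate 2 or 3 or without ZC3H7B replicate 2 or 3 (limma adjusted p = 0.0613 to 0.0859), with DESeq2 (adjusted p = 0.0738), with no filter (limma adjusted p = 0.0910) and with the A+T trend removed (limma adjusted p = 0.189). With ZC3H7A it was called without control replicate 1 (limma adjusted p = 0.0419). SNORA71B, SNORA71C and SNORA71D were not called in the comparisons in which they were tested. With 1 replicate left out, SNORA71B was called higher without ZC3H7A replicate 1 in both overexpressions (limma adjusted p = 0.0280 and 0.0404) and SNORA71C with ZC3H7A without ZC3H7A replicate 3 (limma adjusted p = 0.0126). With edgeR, SNORA71B was called higher in both overexpressions (adjusted p = 0.0465 and 0.0262) and SNORA71C with ZC3H7A (adjusted p = 0.0442). SNORD12, within ZFAS1, had 20.8, 35.5 and 40.0 in DD, against 35.5, 32.0 and 34.9 in Parental. SNORD12 was not called there (log2 fold change -0.13 with SE 0.316, adjusted p = 0.788 by limma) where ZFAS1 fell by 1.04 on the log2 scale. Its neighbour in the same host, SNORD12B, had 24.6, 11.8 and 8.43 in DD, against 44.4, 27.1 and 41.4 in Parental. SNORD12B was called lower there (log2 fold change -1.38 with SE 0.423, adjusted p = 0.0290 by limma), a call lost without Parental replicate 1 or without DD replicate 2 or 3 (limma adjusted p = 0.0759 to 0.0954) and with DESeq2 (adjusted p = 0.0600). SNORD78, listed under GAS5 by name only, was called lower with ZC3H7A (log2 fold change -0.61 with SE 0.258, adjusted p = 0.0484 by limma) and with ZC3H7B (log2 fold change -0.66 with SE 0.258, adjusted p = 0.0373 by limma). It averaged 12.8 ± 4.91 with ZC3H7A, 11.9 ± 2.27 with ZC3H7B and 19.4 ± 3.98 in the control. The SNORD78 call with ZC3H7A was lost without control replicate 1 or 3, ZC3H7A replicate 1 or 2 or any ZC3H7B replicate (limma adjusted p = 0.0512 to 0.183), and that with ZC3H7B without control replicate 1 or 3 or ZC3H7B replicate 1 or 3 (limma adjusted p = 0.0713 to 0.144). Both SNORD78 calls were also lost with DESeq2, TMM scaling and no filter, and that with ZC3H7A with edgeR and with the 2 groups fitted alone. SNORA9, within SNHG15, was not called in any comparison.

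**Figure D3:**
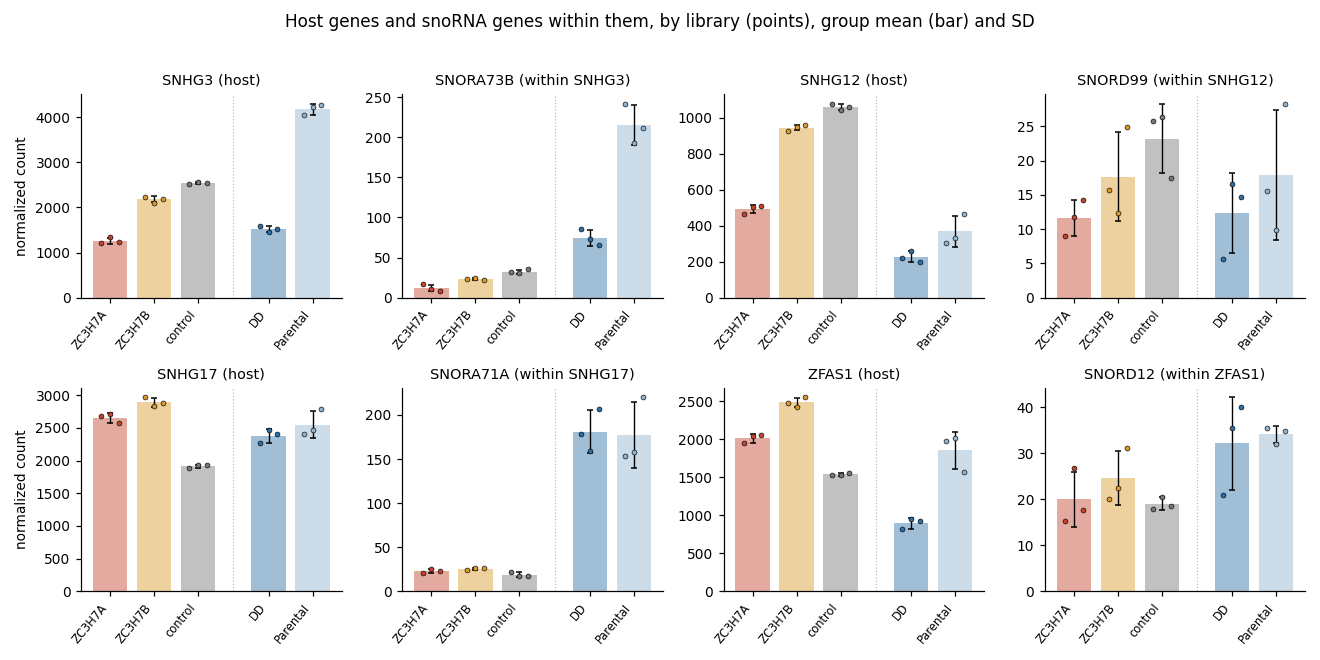
Normalized counts (linear axes from 0) of 4 host genes and of a snoRNA gene within each, by library (points), with the group mean (bar) and SD over 3 libraries (line). SNORA73B follows the group order of SNHG3, while SNORD12 overlaps between DD and Parental where ZFAS1 does not.

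Each host gene was then set beside the 20 tested genes nearest to it on its chromosome, 10 on each side, with the other listed genes and the hosted snoRNAs left out. In DD, all 10 host genes lay below the median of their neighbours, with log2 differences between -1.12 (SNHG3) and -0.19 (SNHG17), and the neighbour medians ranged from -0.33 to 0.22. The neighbours of SNHG3 and SNHG12 also fell, with medians of -0.33 and -0.25 and 9 and 7 of 20 called lower. In the overexpressions the rises on chromosome 20 were shared with the surroundings. The neighbours of SNHG17 had a median of 0.74 with ZC3H7A and 0.68 with ZC3H7B, with 19 and 18 of 20 called higher, and those of ZFAS1 a median of 0.52 and 0.57, with 16 and 17 of 20 called higher. SNHG17 lay below the median of its neighbours in both overexpressions, and ZFAS1 below it with ZC3H7A. With 20 genes taken on each side, SNHG17 with ZC3H7B lay just above the median, at 0.59 against 0.58. The fall of SNHG8 with ZC3H7A, at -0.43, also stood beside a neighbour median of -0.46. For these 3 genes the part of the surrounding region in the result was not tested.

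The medians around SNHG5, SNHG3 and SNHG12 lay far from the host values when each overexpression was set against the control. The neighbours of SNHG5 had medians of 0.04 with ZC3H7A and -0.12 with ZC3H7B, where SNHG5 had 0.39 and 0.62. The neighbours of SNHG3 had -0.08 and 0.26 and those of SNHG12 -0.03 and 0.20, where both host genes fell. With ZC3H7A against ZC3H7B, all 10 host genes lay below the median of their neighbours, with log2 differences between -0.57 and -0.06. The neighbour medians ranged from -0.45 to 0.13 there. SNHG12 and SNHG3 had -0.94 and -0.80, so the medians around them also lay below 0. Single genes beside these hosts moved with them as well. TAF12, a general transcription factor gene next to SNHG12, had log2 fold changes of -0.86 with ZC3H7A, -0.07 with ZC3H7B (not called), -0.79 with ZC3H7A against ZC3H7B and -0.68 in DD, beside -1.10, -0.17, -0.94 and -0.68 for SNHG12. PRDX3P2, a pseudogene next to SNHG3 with group means of 6.42 to 23.6 normalized counts, had -1.27 with ZC3H7A and -0.76 with ZC3H7A against ZC3H7B, and was not called with ZC3H7B (-0.51) or in DD (-0.48). The differences between the hosts and their surroundings, and the part of the surroundings in the host values, were not tested.

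**Figure D4:**
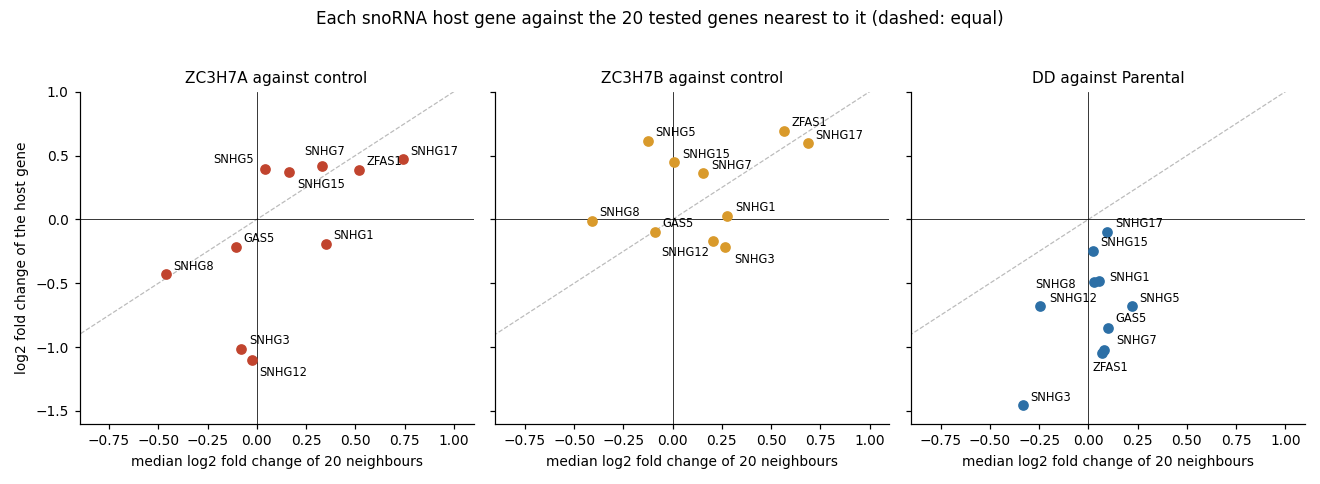
Log2 fold change of each host gene (vertical axis) against the median log2 fold change of the 20 tested genes nearest to it (horizontal axis) in 3 comparisons; the dashed line marks equal values. In DD all 10 points lie below the line, and with ZC3H7A SNHG3 and SNHG12 lie furthest below it.

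Other genes of snoRNA biology were counted from lists. Of all tested genes, 34.7% were called higher and 41.2% lower with ZC3H7A, and 32% and 37.6% with ZC3H7B. In DD the shares were 14.7% higher and 14.8% lower, and these shares stand beside each list count below. Of 7 tested non-coding host genes outside the 10, 5 rose and 1 fell with ZC3H7A, 5 rose and 0 fell with ZC3H7B, and 0 rose and 5 fell in DD, with median log2 fold changes of 0.27, 0.33 and -0.36. The 2 counts of 0 were by limma and held at an unadjusted p under 0.05 and with edgeR and DESeq2, while with ZC3H7B 1 gene was lower with no filter or with the A+T trend removed. EPB41L4A-AS1, the host of SNORA13, averaged 232 ± 15.5 in DD and 450.0 ± 14.2 in Parental (log2 fold change -0.96 with SE 0.110, adjusted p = 6.55e-05 by limma), and rose with ZC3H7B to 874 ± 16.8, against 633 ± 30.9 in the control (log2 fold change 0.47 with SE 0.0514, adjusted p = 6.49e-06 by limma). DANCR averaged 2234 ± 58.9 with ZC3H7B and 1488 ± 84.5 in the control (log2 fold change 0.59 with SE 0.0484, adjusted p = 6.34e-07 by limma), and 1812 ± 41.3 in DD and 2334 ± 164 in Parental (log2 fold change -0.36 with SE 0.0733, adjusted p = 0.00308 by limma). SNHG11 rose with ZC3H7A (log2 fold change 0.78 with SE 0.0639, adjusted p = 4.12e-07 by limma) and was not called in DD (log2 fold change 0.13 with SE 0.180, adjusted p = 0.620 by limma).

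A list of 20 snoRNA hosts outside the ribosome held protein-coding genes and the pseudogene CCT6P1. Of these 20, 5 were called lower in DD, 1 higher and 14 were not called, with a median log2 fold change of -0.07. RCC1, SLC25A3 (the mitochondrial phosphate carrier) and ATP5B (a subunit of ATP synthase) were among those that fell, with -0.68, -0.62 and -0.60. With ZC3H7A, 11 were higher and 6 lower, and with ZC3H7B 13 were higher and 5 lower. The lower count with ZC3H7B was 2 with TMM scaling, with edgeR and with DESeq2, and 1 without control replicate 3 or ZC3H7B replicate 1 and 3 without control replicate 1 or 2 or ZC3H7B replicate 2. The higher count in DD was 5 without Parental replicate 3 and 0 without any other replicate. With the A+T trend removed, the lower counts were 2 with ZC3H7A and 0 with ZC3H7B.

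Most genes of the proteins that form or assemble snoRNPs rose in the overexpressions, 15 of 17 with ZC3H7A and 14 of 17 with ZC3H7B. In each, 2 were lower. Of all tested genes, 34.7% and 32% were called higher in these comparisons. FBL, the methyltransferase of C/D snoRNPs, averaged 44236 ± 2906 with ZC3H7A and 17616 ± 409 in the control (log2 fold change 1.33 with SE 0.0480, adjusted p = 1.14e-09 by limma), and 30778 ± 1099.7 with ZC3H7B (log2 fold change 0.80 with SE 0.0480, adjusted p = 5.28e-08 by limma). RUVBL2, an assembly ATPase, had log2 fold changes of 1.16 with ZC3H7A and 1.02 with ZC3H7B. In DD, 2 of the 17 were higher and 2 lower, with a median of 0.01 equal to that of all genes. NHP2L1, the box C/D core protein that binds the kink-turn, was 1 of the 2 that fell (log2 fold change -0.24 with SE 0.0636, adjusted p = 0.0135 by limma), a call lost without Parental replicate 2 or DD replicate 3 (limma adjusted p = 0.0568 and 0.0778). ZNHIT6, an assembly factor, rose (log2 fold change 0.61 with SE 0.0941, adjusted p = 5.31e-04 by limma). With 1 replicate left out, 1 to 3 of the 17 were higher in DD and 0 to 2 lower, with 0 lower without Parental replicate 2 or DD replicate 3.

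TOP mRNAs other than those of the RPL and RPS ribosomal proteins, which share the pyrimidine start with several hosts, mostly fell in DD. Of 15 tested, 12 fell and 1 rose, with a median log2 fold change of -0.36. With 1 replicate left out, 8 to 13 were called lower and 1 higher. NAP1L1, a histone chaperone, averaged 7762 ± 102 in DD and 16815 ± 1146 in Parental (log2 fold change -1.11 with SE 0.0670, adjusted p = 5.38e-07 by limma). EIF4B, a translation initiation factor, had -1.08, HNRNPA1, a splicing regulator, -0.87 and GNB2L1, a signalling scaffold that binds the small ribosomal subunit, -0.58. With ZC3H7A, 6 rose and 5 fell, and with ZC3H7B 7 rose and 2 fell (4 without ZC3H7A replicate 3). With the A+T trend removed, 13 rose with ZC3H7B, and 2 fell with ZC3H7A and 1 with ZC3H7B. Of the 10 factors of nonsense-mediated decay, 6 rose and 4 fell with ZC3H7A, 6 rose and 3 fell with ZC3H7B, and 3 rose and 1 fell in DD (2 without Parental replicate 1). UPF3B, a link to the exon junction complex, fell with ZC3H7A (log2 fold change -1.25 with SE 0.0894, adjusted p = 1.30e-07 by limma), and SMG8 and UPF2 rose in DD, with 0.56 and 0.54. In DD the list medians were thus furthest below that of all genes for the 10 host genes (-0.68), the other non-coding hosts (-0.36) and the TOP mRNAs (-0.36), and whether the lists differ from each other was not tested.

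**Figure D5:**
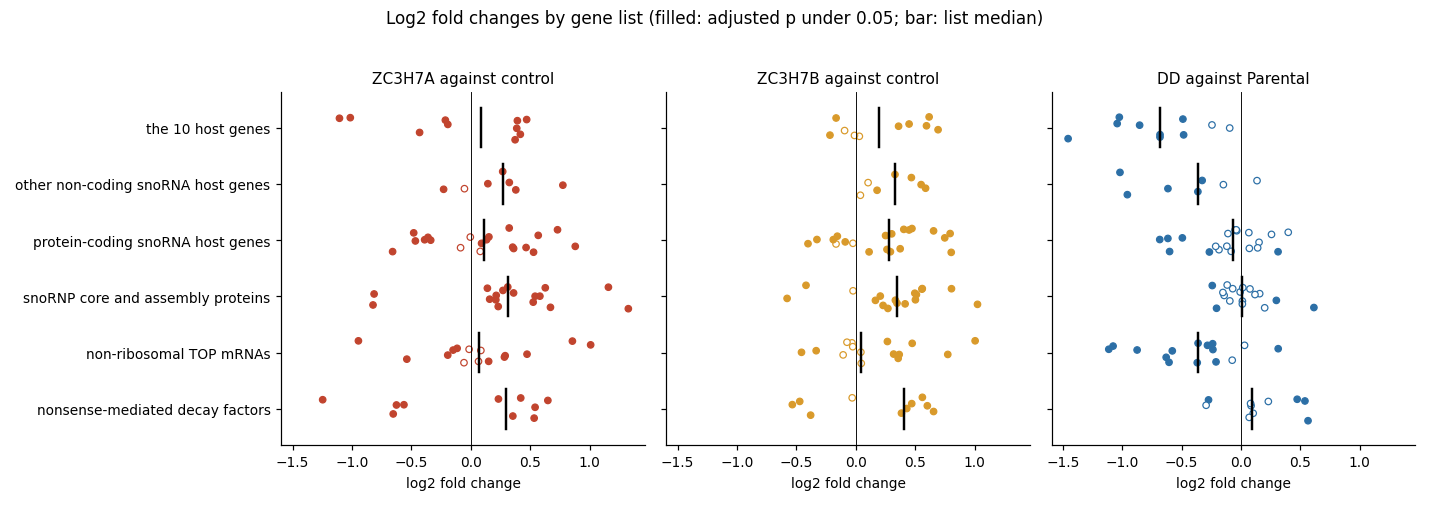
Log2 fold change (horizontal axis) of each tested gene of 6 lists (rows) in 3 comparisons; filled points have an adjusted p under 0.05 and the bar marks the list median. In DD the medians of the 10 host genes, the other non-coding hosts and the TOP mRNAs lie at -0.68, -0.36 and -0.36.

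The genes whose pattern was most like the mean of the 10 were found by Pearson's r over the 15 libraries, each gene centred within its experiment, among 11763 genes. They were C1orf174 (r = 0.984), ZNF726 (0.980), MRPL20 (0.976), MYD88 (0.975) and DVL1 (0.973). Each of these 5 fell with ZC3H7A, rose with ZC3H7B and fell in DD, and C1orf174 had log2 fold changes of -0.18, 0.19 and -1.13. That is the pattern of the mean, which averages host genes that rose with ZC3H7A and host genes that fell. The host genes called lower with ZC3H7A were lower or not called with ZC3H7B, so the pattern is not that of a single host gene. The points share libraries and group differences, so r is a description only. Where these 5 genes lie beside the host genes was not looked at, and the part of a shared region was not tested.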

How the data were processed

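RNA-seq of 15 HEK293 libraries, 3 in each of 5 groups, was deposited as 1 table of 55773 genes. Groups and replicate numbers were taken from the labels. Its values are normalized counts, treated as a signal: the authors divided whole reads by a factor per library, since 100% of the deposited signal values in each library lay within 0.01 of a whole multiple of the smallest one, and reads were recovered in this way. The submitters' processing notes name the aligner STAR 2.7.10b, the counter HTSeq, DESeq2 and the build hg19, per the labels. The gene annotation and the strand setting of the counting are not given in the sources used here.

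Values plus a pseudocount of 1 were put on the log2 scale and fitted with limma 3.58.1 (R 4.3.3; eBayes with trend, two-sided). Genes entered a fit when 3 or more of its libraries reached a value of 10. P-values were adjusted by Benjamini-Hochberg over all tested genes and called under 0.05. The 9 overexpression libraries shared a fit, and the 6 depletion libraries were fitted apart. As alternatives, edgeR 4.0.16 (quasi-likelihood test) and DESeq2 1.42.0 were run on the recovered reads. The edgeR test called 6426 genes higher and 6924 lower with ZC3H7A, 6366 and 6047 with ZC3H7B, 3744 and 3961 with ZC3H7A against ZC3H7B, and 2618 and 2861 in DD. Further alternatives were pseudocounts of 0.5 and 10, other filters, TMM scaling, the 2 groups alone, a replicate block and each replicate left out. A fit with each library's trend with transcript A+T content removed was chosen after seeing the data. The limma and edgeR steps were tested on simulated data.

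Within groups, edgeR's biological coefficient of variation came to 8.84% with ZC3H7A, 4.33% with ZC3H7B, 2.03% in the control, 4.82% in DD and 10.3% in Parental. Replicate numbers are given in the labels with no shared batch or day; deviations from group means of same-numbered libraries correlated at -0.065 to 0.300, and not every pair was above 0.1, so the numbers were taken as not pairing the samples.

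Names were matched to GENCODE 29 on GRCh38: 34274 matched a current symbol, 1374 an older one and 20097 none, and 28 date-like or repeated names were left out. Named genes were all 10 members, their snoRNAs that passed the filter, up to 4 genes of each list with the lowest adjusted p in a comparison, overlapping genes and the 5 most alike in pattern. ZC3H7A and ZC3H7B served to check the labels. SNHG11 in DD and the line's marker genes were named after their values were seen. Members and lists were chosen with earlier results of these data known, so their counts are not independent evidence.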

Additional observations from a re-analysis of the deposited data

How the results depend on the processing

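The members' calls mostly kept their direction and side of the threshold. Of 720 values of a member's log2 fold change under the alternatives, 697 kept both, 8 lost the call, 10 gained it and 5 changed sign. The count of members lower with ZC3H7A was 3 with the A+T trend removed (5 in each other setting). The count lower with ZC3H7B was 1 with TMM scaling, edgeR and DESeq2 (2 as reported), where SNHG12 was lost. The 5 sign changes all came with the A+T trend removed: SNHG1 (0.050), SNHG7 (-0.013) and GAS5 (0.092) with ZC3H7A, GAS5 (0.15) with ZC3H7B and SNHG7 (-0.14) with ZC3H7A against ZC3H7B. The cause was not tested. The 8 lost calls were 3 of SNHG12 with ZC3H7B and 5 of SNHG17 with ZC3H7A against ZC3H7B (DESeq2, no filter, the 2 groups alone and ZC3H7B replicate 1 or 3 left out). SNHG15 in DD was called with the A+T trend removed. Of 720 counts over the other lists 665 stayed within 1.5 times. With 1 replicate left out, 5 members were higher and 5 lower with ZC3H7A, 5 were higher and 2 to 3 lower with ZC3H7B, 0 were higher and 6 to 8 lower with ZC3H7A against ZC3H7B, and 0 were higher and 8 lower in DD. With the replicate number as a block, 5 members were higher and 5 lower with ZC3H7A, 5 higher and 2 lower with ZC3H7B, 8 lower with ZC3H7A against ZC3H7B (GAS5 added) and 8 lower in DD. Depth limits the snoRNA values, which rest on few reads per group, such as 17 reads of SNORD99 over the DD libraries and 24 over Parental.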

Other observations

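SNHG16, a host gene outside the 10, had 14873, 14788 and 15438 normalized counts in DD, against 19352, 19838 and 17457 in Parental (log2 fold change -0.33, limma adjusted p = 0.00360). In the overexpression experiment it had 1119, 1125 and 1113 with ZC3H7A, 1121, 1039 and 1104 with ZC3H7B and 1042, 967 and 1030.3 in the control. The experiments used different library protocols, so no comparison of the levels between them was made.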
